A study of Zea mays with 27 samples.

Results

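The maize genes pox2 (LOC542571) and PER42 encode class III peroxidases, and their variation from array to array was examined in seedlings of 2 inbred lines and their hybrid. The probes were all those assigned to 1 gene whose gene identifier was that of pox2 or whose symbol was PER42. This gave 2 probes of pox2 and 3 of PER42, 5 among 18303 probes with values and among 1607 probes assigned to 1 gene. Each probe is a cDNA spot and is called here by its number in the deposited table. pox2 was chosen by the wide spread of a probe on these same arrays, and PER42 was taken with it, so what follows is a description and carries no p-value.

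Class III peroxidases are secreted haem enzymes of plants. They use hydrogen peroxide to oxidise phenolic compounds, which couples monolignols into lignin and cross-links proteins and phenolic esters of the cell wall, and they can also generate reactive oxygen. RefSeq gives pmPOX2 as a synonym of pox2 and pmPOX3-1 as a synonym of PER42, names used in maize for peroxidases bound to the plasma membrane.

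Per the labels, above-ground tissue of 14-day-old seedlings of B73, of Mo17 and of their F1, with Mo17 as the female parent, was used, and each RNA sample pooled 6 seedlings. Seed came from 3 ears per genotype, and 10 replications were grown, of which 9 were kept. In a replication the 3 genotypes were compared in pairs on 3 arrays with alternating dyes, giving 27 arrays (S1 to S27) scanned at a low setting according to the series title. Only 1 channel had a genotype in the labels used here, F1 in Cy3 on S1, so no array was placed in a group and B73, Mo17 and F1 were not compared. The values are ratios between a pair of samples of the same tissue and give no expression level. The labelled tissue could therefore not be checked against marker genes.

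All values below are log2 ratios after the median of each array was set to 0, so that 1 is a 2-fold distance from the array's median. The deposited values were read as natural log ratios, a base inferred from the values. A constant multiple of the log ratio remains possible, and every fold below rests on this reading. The numerator channel is not stated, and 6 of 351 pairs of arrays correlated below -0.3 over all probes, so "above" and "below" have no settled meaning for a single array. Both probes of a pair share the channels of each array. Whether they lie on the same side of the median, and the correlation about 0, therefore do not depend on the direction of any array. Arrays of the same replication share RNA and the replications are not named, so the 27 arrays are not independent and correlations over them are descriptions. On S1 to S15 a single most frequent value was held by 2.47% to 13.9% of spots, and on S16 to S27 by 0.0601% to 0.475%. The main results are given for all arrays and for both sets.

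All 5 probes varied at least 2-fold over the arrays, measured between the 10th and the 90th percentile of a probe's values, called the spread. The same was true of 79.2% of all probes and of 65.0% of probes assigned to 1 gene, so that count is near the background. At a spread of at least 4-fold (2 on the log2 scale) there were 3 of the 5 probes, both of pox2 and 1 of PER42, beside 36.0% of all probes.

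**Figure D1:**
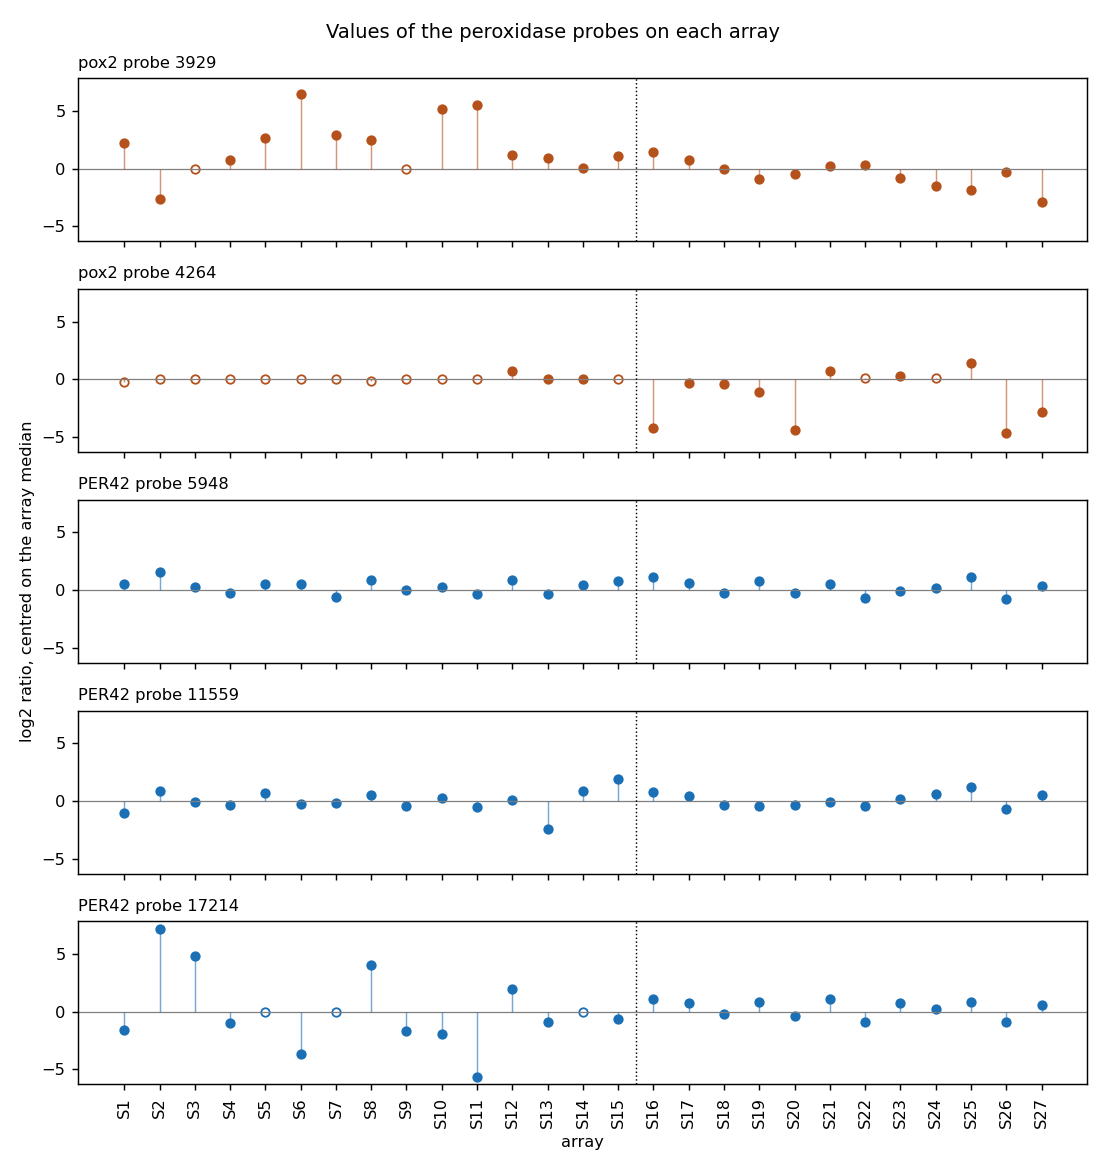
Values of the 5 probes on each array (vertical axis, log2 ratio centred on the array median; horizontal axis, arrays S1 to S27). Open circles hold the array's most frequent value and the dotted line parts S1 to S15 from S16 to S27. The highest values of probe 3929 and both extremes of probe 17214 lie before the line, those of probe 4264 after it, and probes 5948 and 11559 stay between -2.42 and 1.92 throughout.

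The pox2 probe 3929 ran from -2.91 (S27) to 6.49 (S6) with a median of 0.32. Its largest values were on S6, S11 (5.47) and S10 (5.14), and it lay among the outermost 5% of all probes in size on 4 arrays, these 3 and S7. Its spread was 5.46, which is 44.0-fold and wider than that of 98.5% of all probes. Within S1 to S15 the probe was above the median on 12 arrays, below it on 1 (S2, -2.60) and at it on 2. Within S16 to S27 it was above on 4 and below on 8, with a narrower spread of 2.53 against 5.34 in S1 to S15.

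The other pox2 probe, 4264, behaved in the opposite way between the sets. It ran from -4.67 (S26) to 1.42 (S25) with a median of 0.00 and a spread of 3.85. On 12 of the 15 arrays S1 to S15 it held the array's most frequent value, and its spread there was 0.12, narrower than that of all but 0.85% of probes. Within S16 to S27 the spread was 5.04, with values of -4.24 on S16, -4.34 on S20, -4.67 on S26 and -2.80 on S27. Without any 1 of S16, S20 and S26 took the spread over all arrays from 3.85 to 2.45, so this value rests on few arrays.

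The pox2 probes showed little common variation. Their Pearson correlation over 27 arrays was 0.17 (Spearman's rho 0.050), and about 0 it was 0.028. They lay on the same side of the median on 10 of the 18 arrays where neither was at it. Among S1 to S15, where probe 4264 was nearly constant, r was -0.11, and among S16 to S27, where both varied, r was -0.16. The correlation about 0 was 0.0014 and 0.081 in the sets. Of the other arrays, those without S6 and S27, the arrays farthest from the median of the gene's mean, gave r = 0.055. Without S27 alone r was 0.079. On the arrays where probe 4264 was lowest, S26 and S20, probe 3929 had -0.25 and -0.45, and on S6, where probe 3929 was highest, probe 4264 had 0.00.

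PER42 gave a narrower and more repeatable pattern at 2 of its 3 probes. Probe 5948 ran from -0.74 (S26) to 1.57 (S2), with a median of 0.33 and a spread of 1.43 (2.69-fold). Probe 11559 ran from -2.42 (S13) to 1.92 (S15), with a median of -0.08 and a spread of 1.45 (2.73-fold). Their spreads were wider than those of 45.0% and 46.1% of all probes, near the middle. Neither probe held a most frequent value, or a value found on at least 3 spots, on any array.

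Probe 17214 of PER42 ran from -5.66 (S11) to 7.16 (S2), with a median of 0.00 and a spread of 4.57 (23.7-fold). The wide values lay in S1 to S15, where the spread was 7.41 and the values on S2, S3 (4.77), S8 and S11 lay among the outermost 5% of probes. Within S16 to S27 all its values lay between -0.90 and 1.13 and its spread was 1.89, beside 1.74 for probe 5948 and 1.21 for probe 11559. Without S2 the spread over all arrays was 3.35. Its standard deviation over arrays was 5.66 times that of probe 5948 in S1 to S15 and 1.12 times in S16 to S27. It held a most frequent value on S5, S7 and S14, and a value found on at least 3 spots on 7 arrays, all of S1 to S15. These arrays included S2 and S8 but not S3 or S11. Pox2 probe 3929 held such shared values on 10 arrays, of which 9 were in S1 to S15, and pox2 probe 4264 on 20. For probe 3929 they included its largest values, on S6, S10 and S11. The part of these shared values in the spreads was not tested.

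**Figure D2:**
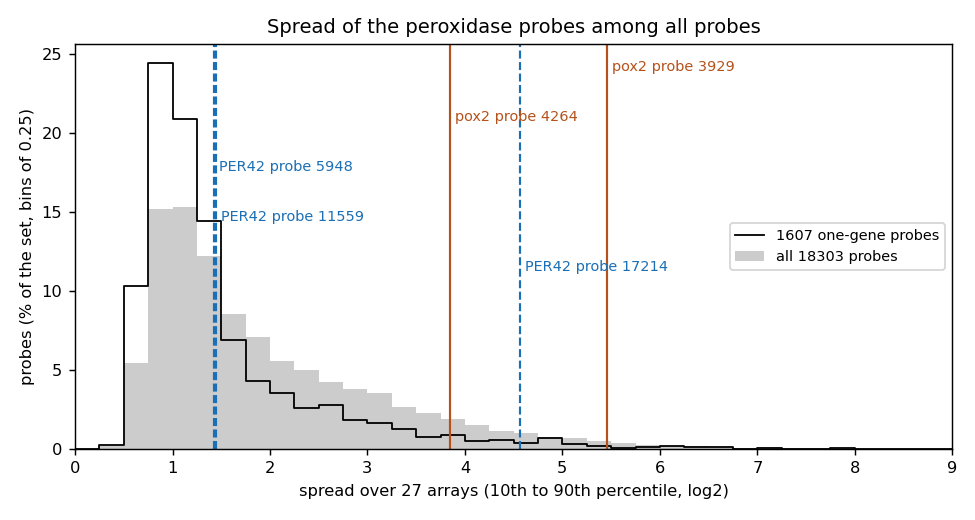
Spread of the probes (horizontal axis, log2) among all 18303 probes (grey bars) and the 1607 probes assigned to 1 gene (black line), as percent of each set per bin of 0.25; 7 probes wider than 9 are not shown. Lines mark pox2 (solid) and PER42 (dashed): PER42 probes 5948 and 11559 lie at 1.43 and 1.45, near the bulk, and the other 3 lines lie from 3.85 to 5.46.

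The 3 PER42 probes varied together over arrays. Probes 5948 and 11559 had r = 0.60 (rho 0.62, and 0.56 about 0) and were on the same side of the median on 20 of 27 arrays. Probes 5948 and 17214 had r = 0.55 (rho 0.61, 0.52 about 0) and were on the same side on 18 of 24. Probes 11559 and 17214 had r = 0.34 (rho 0.52, 0.34 about 0) and were on the same side on 19 of 24. An r of at least 0.5 was reached by 2 of these 3 pairs, against 19.6% of all 27916 pairs of probes of the same gene. The median r was 0.19 over those pairs, and 0.0093 over 1262505 pairs of probes of different genes.

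Agreement among the PER42 probes was found in both sets of arrays. The mean r of the 3 pairs was 0.49 over all arrays, 0.51 within S1 to S15 and 0.76 among S16 to S27. Within S16 to S27 probes 5948 and 17214 had r = 0.89 and lay on the same side of the median on 11 of 12 arrays. There, probes 5948 and 11559 had r = 0.73, and probes 11559 and 17214 had 0.65. All 3 probes were above the median on 5 of these 12 arrays, all below it on 4, and divided on 3. Among S1 to S15 the 3 probes were all above on 3 arrays, all below on 3, and divided or at the median on 9. S2 and S11 lay farthest from the median of the gene's mean, and without both the mean r was 0.40.

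**Figure D3:**
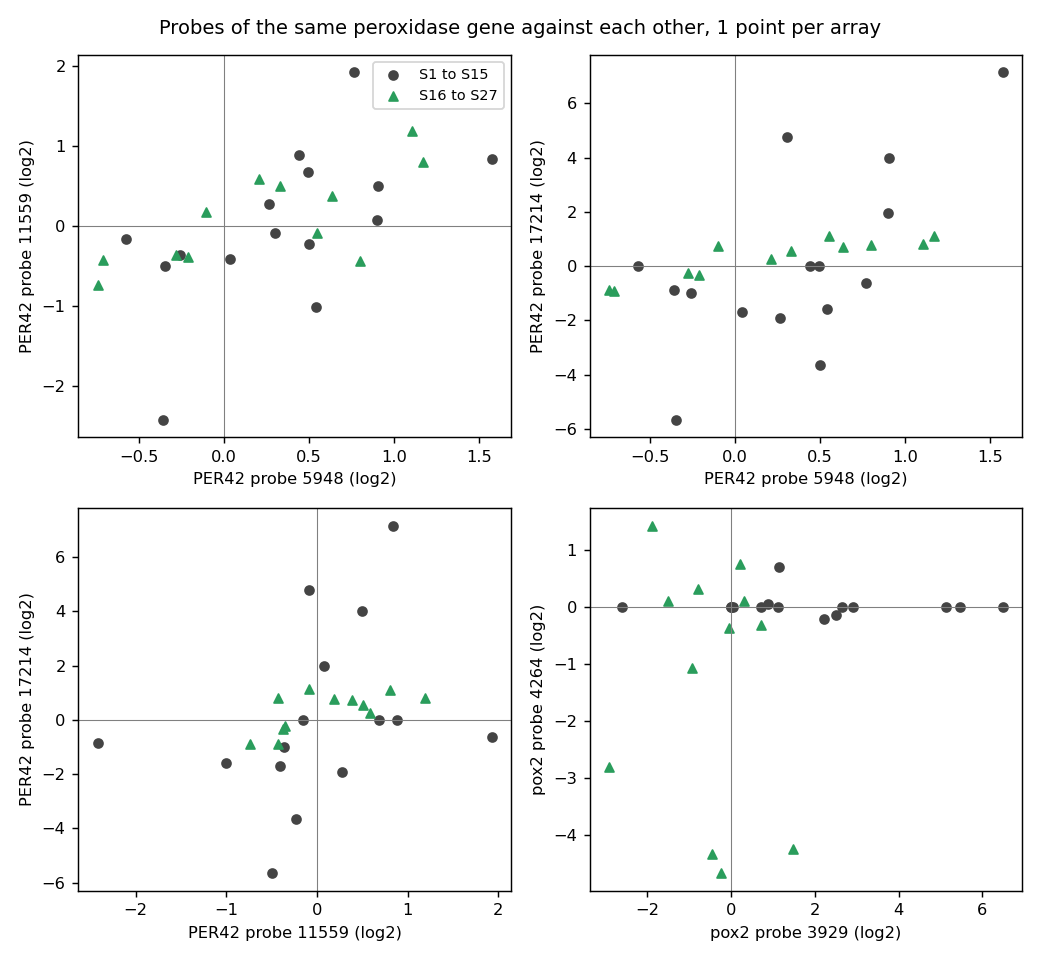
Each point is 1 array, with the log2 values of a pair of probes of the same gene on the axes (circles S1 to S15, triangles S16 to S27). The PER42 pairs slope upward, most tightly for the triangles of probes 5948 and 17214 (r = 0.89), whereas the circles of pox2 form a flat line, because probe 4264 was nearly constant there.

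pox2 and PER42 had no common pattern that was found in both sets of arrays. The means of their probes had r = -0.34 over 27 arrays (rho -0.25, -0.31 about 0), and they were on opposite sides of the median on 15 of 25 arrays. In S1 to S15 the r was -0.64 and in S16 to S27 it was 0.20, of opposite sign. The correlation about 0, which does not depend on array direction, was -0.42 and -0.069 in the sets, both below 0. Without S11, where the pox2 mean was 2.73 and the PER42 mean was -2.17, r was -0.22. Without S6 and S27 it was -0.28.

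The inverse relation was strongest in 1 of the 6 pairs of probes between the genes. pox2 probe 3929 and PER42 probe 17214 had r = -0.57 over all arrays (rho -0.41, -0.51 about 0), -0.71 within S1 to S15 and -0.053 among S16 to S27. About 0 the values in the sets differed less, at -0.53 and -0.21. On S2 probe 17214 had 7.16 and probe 3929 had -2.60. On S6, S10 and S11, where probe 3929 had 6.49, 5.14 and 5.47, probe 17214 had -3.64, -1.91 and -5.66. The values of probe 3929 on these arrays, and of probe 17214 on S2 and S6, were each found on at least 3 spots. Those of probe 17214 on S10 and S11, and of probe 3929 on S2, were not. Without S6 and S11 the r was -0.34. The other 5 pairs had r from -0.17 to 0.17 over all arrays. An r of at most -0.5 was found in 2.47% of pairs of probes of different genes, and one of at least 0.5, which no pair here reached, in 4.90%. With PER42 probes 5948 and 11559, which held no repeated values, probe 3929 had r = -0.14 and -0.17.

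**Figure D4:**
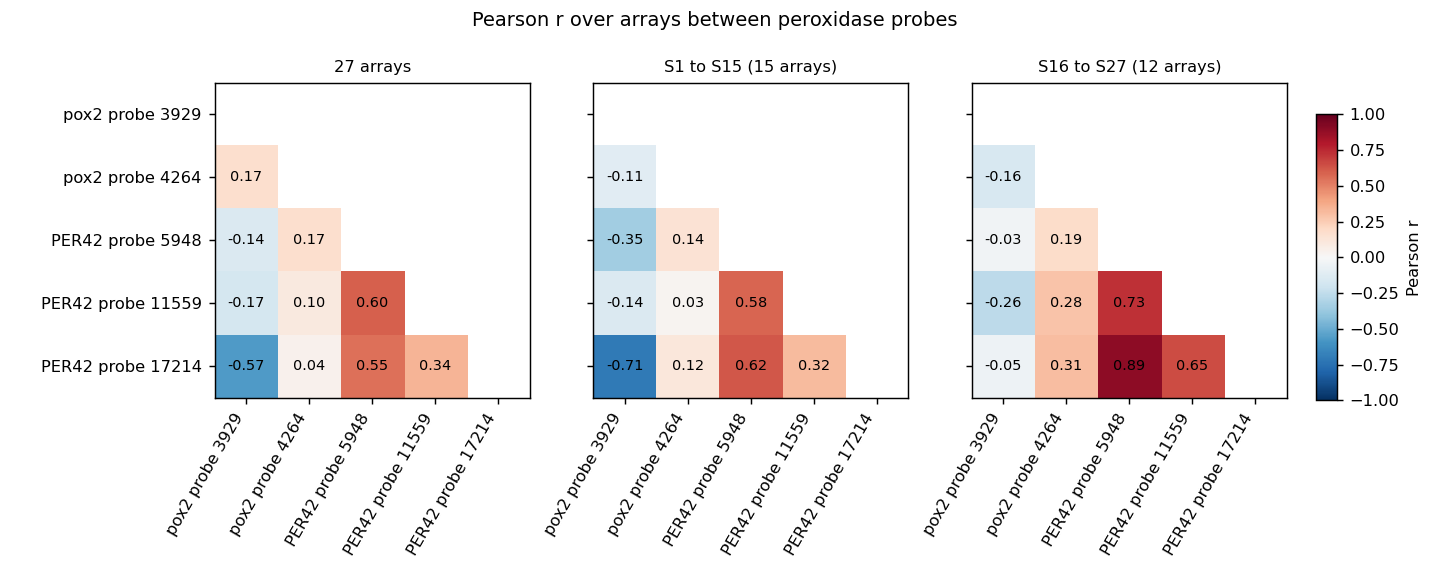
Pearson correlation over arrays (colour and printed value) for each pair of the 5 probes, over all 27 arrays and within S1 to S15 and S16 to S27. The 3 PER42 cells in the lower right are above 0 in each panel, the pox2 cell is near 0, and the cell of probes 3929 and 17214 goes from -0.71 to -0.05 between the sets.

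The PER42 mean was compared with the 1602 other probes assigned to 1 gene, and the 5 highest and 3 lowest correlations are named. This mean followed probe 17214 (r = 0.94) more than probe 5948 (r = 0.75) or probe 11559 (r = 0.62). About 0 over all arrays, the 5 highest had 0.63 to 0.72 and the 3 lowest -0.67 to -0.54. Within the sets only r was computed for them, which depends on the direction of the arrays. The highest was bde1 (ZAG3), a MADS-box transcription factor gene, with r = 0.72 (0.58 without S2), 0.83 in S1 to S15 and 0.36 in S16 to S27. With PER42 probes 5948, 11559 and 17214 singly, bde1 had r = 0.56, 0.19 and 0.75. Next came BM1 (CAD2), the cinnamyl alcohol dehydrogenase that makes monolignols, with r = 0.68, 0.73 in S1 to S15 and 0.58 in S16 to S27. BM1 lay on the same side of the median as the PER42 mean on 22 of 27 arrays. The sam2 probe, for an S-adenosylmethionine synthetase, which makes the methyl donor used in lignin and many other pathways, had r = 0.65, with 0.69 and 0.62 in the sets. The other 8 probes of sam2 had r from 0.20 to 0.48.

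The likeness of BM1 and sam2 to PER42 was found with each PER42 probe. BM1 had r = 0.56 with probe 5948, 0.79 with probe 11559 and 0.50 with probe 17214. For sam2 these values were 0.61, 0.58 and 0.52. This was not particular to BM1 and sam2. MPK4, named below, had 0.67, 0.39 and 0.52, and a probe of grp1 had -0.48, -0.53 and -0.51. BM1 ran from -2.27 (S13) to 2.57 (S2), and sam2 from -4.33 (S13) to 8.47 (S2). Without S2, where the PER42 mean was also highest (3.19), BM1 had r = 0.59 and sam2 had 0.46. BM1 and sam2 were picked among the highest of 1602 by r with the mean of these same PER42 probes. Their r with each single probe is therefore not separate evidence. Of the 1602 probes, 2.43% reached an r of at least 0.5 with the PER42 mean.

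The other probes named for PER42 were MPK4, NRH2b and the 3 lowest. MPK4, a mitogen-activated protein kinase, had r = 0.62, with 0.68 in S1 to S15 and 0.50 in S16 to S27. NRH2b had r = 0.64 but 0.72 and -0.15 in the sets. Its rho was 0.19, its r without S2 was 0.43, and the gene's other probe had r = 0.19. It lay on the same side of the median as the PER42 mean on 12 of 27 arrays. With probes 5948, 11559 and 17214 NRH2b had r = 0.38, 0.20 and 0.69. The lowest correlations were -0.66 for RP-P0, the acidic P0 protein of the large ribosomal subunit, -0.61 for a probe of grp1 and -0.59 for a probe of nas1, a nicotianamine synthase. For RP-P0 the values were -0.80 in S1 to S15 and 0.14 in S16 to S27, and the other 8 probes of the gene had r from -0.41 to -0.075. For nas1 they were -0.61 and -0.62, and the gene's other probe had 0.052. Without S2 the grp1 probe had -0.39. With probes 5948, 11559 and 17214 RP-P0 had r = -0.44, -0.28 and -0.67.

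For pox2 the most alike probes correlated less strongly, and an r of at least 0.5 with the pox2 mean was found in 0.437% of the other 1602 probes, while 51.0% had an r above 0. They were Pti1d, of a protein kinase family, with r = 0.60, nas1 with 0.57, rop4, a small GTPase, with 0.56, ANT-G2, an adenine nucleotide carrier of mitochondria, with 0.54, and TCTP with 0.52. The lowest were DBP1a (DREB2A), a drought-related transcription factor, with -0.55, PDC, pyruvate decarboxylase, with -0.55, and hsp22, a small heat shock protein, with -0.53. About 0 over all arrays, the highest probes had 0.46 to 0.59 and the lowest -0.54 to -0.51. Several of these probes differed in r between the sets of arrays, where the correlation about 0 was not computed. PDC had -0.63 in S1 to S15 and -0.056 in S16 to S27, and hsp22 had -0.72 and -0.19. TCTP had 0.10 and 0.56, Pti1d 0.38 and 0.66, and ANT-G2 0.31 and 0.60. For nas1 the values were 0.25 and 0.46, for rop4 0.45 and 0.58, and for DBP1a -0.52 and -0.47. The other probes of Pti1d had r from -0.24 to 0.10, and those of rop4 from -0.038 to 0.20. For ANT-G2 the range was -0.42 to 0.034 and for TCTP -0.39 to 0.17, whereas the other nas1 probe had 0.48. The other hsp22 probe had 0.30, opposite in sign to the one named. Without S27, Pti1d had 0.48, rop4 0.44, ANT-G2 0.43 and TCTP 0.37. The pox2 mean followed probe 3929 (r = 0.86) more than probe 4264 (r = 0.65). The nas1 probe had r = 0.31 with probe 3929 and 0.64 with probe 4264. With probe 4264 its rho was -0.12, and the pair lay on the same side of the median on 6 of 18 arrays. The rop4 probe had r = 0.57 with probe 3929 and 0.24 with probe 4264. Pti1d, ANT-G2 and TCTP had 0.48, 0.45 and 0.45 with probe 3929, and 0.44, 0.37 and 0.34 with probe 4264. The lowest probes were inverse mainly to probe 3929. DBP1a, PDC and hsp22 had -0.56, -0.62 and -0.60 with it, and -0.23, -0.13 and -0.14 with probe 4264.

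**Figure D5:**
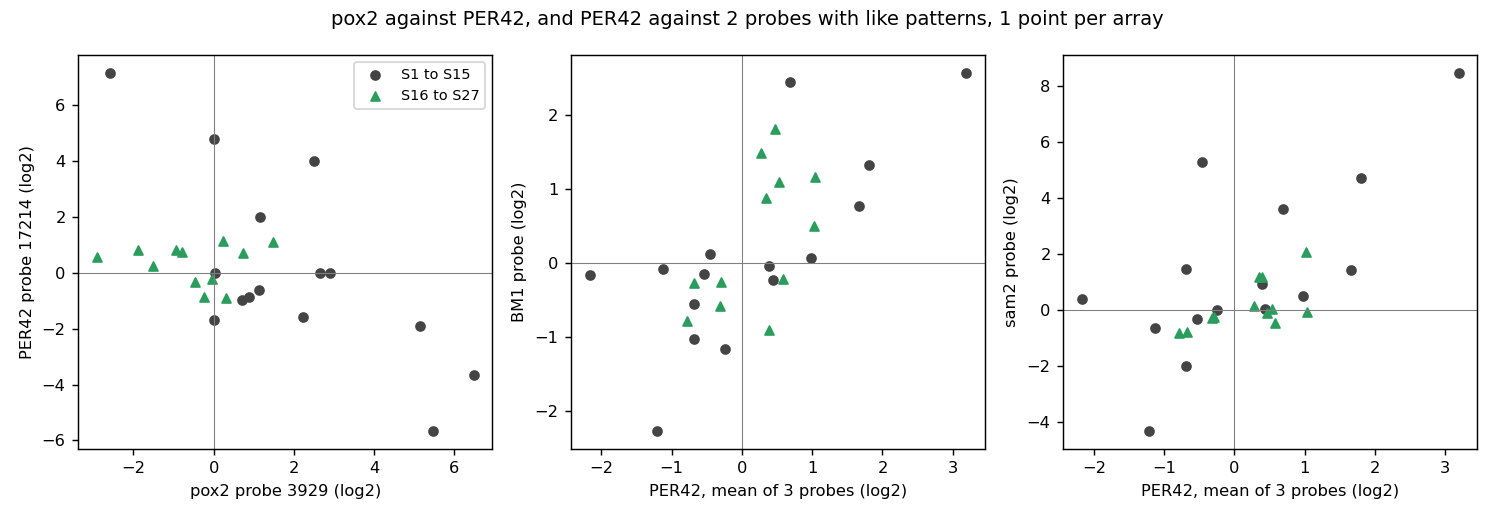
Each point is 1 array (circles S1 to S15, triangles S16 to S27), axes in log2. Left, PER42 probe 17214 against pox2 probe 3929 slopes downward for the circles (r = -0.71, -0.53 about 0) and not for the triangles (r = -0.05, -0.21 about 0). Middle and right, BM1 and sam2 rise with the PER42 mean in both sets (r = 0.73 and 0.58 for BM1, 0.69 and 0.62 for sam2), with S2 at the upper right.

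Enzymes that make the peroxidases' phenolic substrates varied widely but mostly without PER42 or pox2. All 6 phenylpropanoid and monolignol probes had a spread of at least 1, beside 65.0% of probes assigned to 1 gene and 79.2% of all probes. Their median spread was 2.69, against 1.17 for probes assigned to 1 gene and 1.54 for all probes. Only BM1 reached an r of 0.5 with PER42, and none did with pox2. The 2 probes of pal3 (PAL1), phenylalanine ammonia-lyase, had r = 0.20 and 0.071 with PER42, and those of 4CL, 4-coumarate:CoA ligase, had -0.064 and -0.17. The probe of ccr2, cinnamoyl-CoA reductase, had r = -0.24 with PER42 and 0.37 with pox2. The most frequent value was held by 1 of the 4CL probes on 15 arrays, by ccr2 on 8 and by BM1 on 0.

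Other genes matched as peroxidases by symbol were apx2, an ascorbate peroxidase of class I, and per-1 (PER1), which in barley names a peroxiredoxin. Of their 6 probes 3 had a spread of at least 1, beside 65.0% of probes assigned to 1 gene and 79.2% of all probes. The 5 apx2 probes had spreads from 0.67 to 1.34 and r with PER42 from 0.0060 to 0.56, all above 0, as were 60.9% of the other 1602 probes. With pox2 they had 1 of 5 above 0 and a median r of -0.36. The per-1 probe had a spread of 3.76, with r = -0.16 with PER42 and -0.11 with pox2. On 8 arrays it was at the most frequent value. No further class III peroxidase was matched by symbol.

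Enzymes that make or remove hydrogen peroxide and superoxide had 39 probes, of which 31 had a spread of at least 1, near the 79.2% of all probes and above the 65.0% of probes assigned to 1 gene, with a median spread of 1.15. The widest were a probe of Sod4A, a copper-zinc superoxide dismutase, at 2.90, at the most frequent value on 14 arrays, one of sod2 at 2.40 and another of Sod4A at 2.19. Their r with PER42 was -0.39 to 0.56 with a median of 0.064, and with pox2 -0.42 to 0.33 with a median of -0.035. A probe of apx2 was the only one of 39 to reach 0.5 with PER42, and none did with pox2. The catalase genes CAT3 and cat1 had r from -0.39 to 0.069 with PER42. The rbohB probe, for an NADPH oxidase that makes superoxide, had -0.14.

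Wall proteins were of mixed sign in their correlation with PER42, where 60.9% of the 1602 other probes were above 0. Of 41 probes of wall structural and loosening proteins, 35 had a spread of at least 1, beside 65.0% of probes assigned to 1 gene and 79.2% of all probes, the widest being probes of HRGP at 6.41 and 3.72 and of expa2 at 4.25. HRGP, a hydroxyproline-rich glycoprotein of the kind that peroxidases cross-link, had r above 0 with PER42 for 7 of its 8 probes, with a median of 0.36 and a range from -0.23 to 0.51. That median was 0.39 within S1 to S15 and 0.50 among S16 to S27. The grp1 probes had r below 0 in 20 of 26 cases, with a median of -0.21, and -0.19 and -0.35 in the sets. The single prp2 probe had r = 0.57, and 1 of 3 probes of the expansin expa2 and 1 of 2 of expB8 had r below 0. Probes for the same gene share their target, so their counts are not counts of genes. No wall probe reached 0.5 in size with pox2, the highest being 0.45 for a grp1 probe.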

How the data were processed

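The authors deposited 1 table of log ratios for 27 two-channel cDNA arrays, with Cy3 as channel 1 and Cy5 as channel 2 per the labels. How the arrays were scanned, background-corrected and normalized is not stated in the labels. The deposited values were read as the natural log of the channel ratio, a base inferred from the values. Among values found at least 3 times on the same array, 106 pairs differed by 2 times the natural log of an integer between 2 and 10 (within 2e-05), beside 4.81 pairs when the distances were shifted. At 1 times the natural log there were 33 against 14.4, and at 0.5 times 48 against 38.9. At 2 times the log in base 2 there were 3 against 3.53, and in base 10 there were 20 against 20.6. Division by the natural log of 2 put them on the log2 scale, and folds rest on this reading, which leaves a constant multiple of the log ratio possible.

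Of 19200 spots 897 were empty, and the other 18303 were filled on every one of the 27 arrays. Medians of arrays were subtracted, and the spread ran from the 10th to the 90th percentile. A most frequent value held by 2% of spots or more marked 15 arrays, leaving 12. Correlations were computed with numpy 2.4.6 and pandas 2.3.3 and tested on simulated data. A gene's mean profile was the mean of its centred probes. No intensity or count was used. The number of arrays limits precision, and other limits, such as dim spots, were not measured.

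Gene names came from the platform's table (1607 probes with 1 gene, 532 genes, 23 probes with several genes, 16673 unnamed here) and were updated through RefSeq's Zm-B73-REFERENCE-NAM-5.0 annotation, which held 1320 of the probes and 515 of the genes. The 4 gene lists matched symbols and synonyms. Named probes were all members, the 5 highest and 3 lowest correlations with each gene's mean, all probes of the peroxidase and phenylpropanoid lists and the 3 widest of each other list; per-gene summaries of the lists, and prp2, CAT3, cat1, rbohB and expB8, were added after the values were seen. Members and lists were chosen with earlier results of these data known.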

Additional observations from a re-analysis of the deposited data

How the results depend on the processing

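Of the 5 probes with a spread of at least 1, 4 to 5 kept that count under the other centrings, scales and sets of arrays and with any array left out, but 2 reached it with the interquartile range and 3 reached a threshold of 2. For the 87 distinct probes of the gene lists the count was 73 (64 to 74 with an array left out), and 17 with the interquartile range and with a threshold of 2. The agreement of the pox2 probes, 0.17, was 0.079 to 0.24 with an array left out. It was 0.026 with each array's most frequent value as missing, 0.050 as Spearman's rho, 0.028 about 0 and 0.055 without the 2 farthest arrays. As r it turned to -0.11 within S1 to S15 and -0.16 among S16 to S27, while about 0 it was 0.0014 and 0.081 there. The agreement of the PER42 probes, 0.49, was 0.42 to 0.53 with an array left out and 0.76 within S16 to S27, and moved by less than 0.1 in the other settings. The correlation of pox2 with PER42, -0.34, was -0.43 to -0.22 with an array left out (S26 and S11), -0.45 with repeated values as missing, -0.64 within S1 to S15, 0.20 within S16 to S27, -0.096 as the mean of single pairs and -0.15 when probes were divided by their SD before averaging. The cause of these changes was not tested. Alternatives for the gene lists, for single probes and the division by SD were chosen after seeing the data. Blocks of 400 spots in table order were used for block centring, since 83.3% of empty spots had another 400 spots on, and the 5 probes lay in 5 different blocks. No paired analysis was possible because the labels give the arrays neither groups nor replicate numbers. How far dim spots limit these values was not measured, because no signal over background was used.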

Other observations

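On S1, the only array with a labelled channel (F1 in Cy3), pox2 probe 3929 had 2.22 and probe 4264 had -0.21, while PER42 probes 5948, 11559 and 17214 had 0.54, -1.01 and -1.59. The genotype in the other channel and the numerator are not named, so these values have no direction. The value of probe 4264 was the most frequent value of S1, held by 452 spots. That of probe 3929 was also found on at least 3 spots, and those of the PER42 probes were not.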
